A study of Mus musculus with 3 samples.

Results

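The cholesterol synthesis genes described here are Hmgcs1, Idi1, Fdps, Fdft1, Sqle, Lss, Cyp51 and Insig1. They were matched by gene symbol and are 8 of the 30406 genes that the tables of all 3 libraries list. The first 7 encode enzymes of the mevalonate and sterol pathway, and Insig1 encodes a regulator of it, so the set is that pathway and its feedback rather than enzymes alone. Their raw unique molecular identifiers (UMIs, 1 for each captured RNA molecule) were summed over cells in which more than 200 but fewer than 6000 genes and less than 10% mitochondrial UMIs were found. The series asked how thymic invariant natural killer T (iNKT) cells, T cells that recognise lipids on CD1d, differ after haploidentical bone marrow transplantation (BMT) with chronic graft-versus-host disease (GVHD). Thymocytes were depleted of CD8+ cells with beads, and those positive for TCRβ and the CD1d tetramer but negative for CD24 and NK1.1 were sorted and sequenced in droplets. The WT library held cells of C57BL/6 mice without BMT, labelled 7 weeks. The Non-GVHD library came from F1 (C57BL/6 x BALB/c) mice given, after lethal irradiation, only bone marrow of C57BL/6 mice from which T cells had been removed. The GVHD library came from mice treated in the same way that also received C57BL/6 splenic cells. Both were labelled 16 weeks, 9 weeks after BMT. Each library was made from pooled mice and each condition had 1 library. Differences therefore stand without replicates and without a test, and every interval is a 95% interval that covers counting error only.

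Cholesterol is built from acetyl-CoA through mevalonate and isoprenoids to squalene, which is oxidised, closed into lanosterol and then demethylated and reduced. When sterols in the endoplasmic reticulum are low, SCAP carries the transcription factor SREBP2 to the Golgi for cleavage, and the released factor raises transcription of these enzymes. When sterols are high, INSIG proteins hold SCAP back. Lymphocytes need new membrane as they enter the cell cycle, and the pathway is known to be switched on in activated T cells.

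Promoter sequences are shown because these genes are known to share control by SREBP2. RefSeq (GRCm38.p6) promoter sequences were matched for 5 of the 8 genes, Hmgcs1, Idi1, Lss, Cyp51 and Insig1. The 250 bases before the RefSeq start were searched on both strands for TCACNCCAC (a sterol regulatory element-like motif), CCAAT (the NF-Y box) and GGGCGG (the SP1 or GC box), and no match overlapped another. On the reverse strand they read ATTGG and CCGCCC for the last pair. TCACNCCAC was matched in 1 of the 5, Hmgcs1, 137 bases before its start, against 1.05% of the 32851 promoters in the table. CCAAT was matched in 5 of 5 against 33.8% of all, and GGGCGG in 5 of 5 against 32.7%. A match is a description of letters and not a measured binding site. The stretches printed here lie before the gene's start in both RefSeq and GENCODE vM21 and overlap no GENCODE gene, and capitals mark the matches. Hmgcs1 is shown for its sterol element-like letters, Cyp51 as a gene whose level differed between cycling and other cells, and Insig1 as one whose level did not differ beyond counting error. The Cyp51 CCAAT lies 29 bases before its RefSeq start but after its GENCODE start, and so outside its printed stretch. The matches of Idi1 lie after its GENCODE start, so its promoter is not printed.
Hmgcs1, chr13:119690101-119690350, + strand: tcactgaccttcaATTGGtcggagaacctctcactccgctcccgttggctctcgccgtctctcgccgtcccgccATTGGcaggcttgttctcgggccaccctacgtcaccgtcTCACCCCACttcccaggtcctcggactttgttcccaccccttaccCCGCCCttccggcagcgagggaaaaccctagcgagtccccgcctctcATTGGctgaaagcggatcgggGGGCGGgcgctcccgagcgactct
Cyp51, chr5:4104747-4104947, - strand: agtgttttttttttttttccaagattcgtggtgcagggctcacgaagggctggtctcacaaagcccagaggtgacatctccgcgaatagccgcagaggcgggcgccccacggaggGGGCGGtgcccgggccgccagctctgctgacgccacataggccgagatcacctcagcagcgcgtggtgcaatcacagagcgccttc
Insig1, chr5:28071162-28071362, + strand: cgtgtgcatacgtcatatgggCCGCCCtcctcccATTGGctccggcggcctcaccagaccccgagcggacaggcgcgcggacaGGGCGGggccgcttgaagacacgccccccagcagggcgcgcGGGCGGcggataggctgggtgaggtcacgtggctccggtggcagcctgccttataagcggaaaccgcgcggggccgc

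The tables held 4434, 5970 and 5557 such cells in WT, Non-GVHD and GVHD, with median UMIs of 12086.5, 4740 and 6495 per cell. Levels are given as UMIs per 1000000 UMIs of the 30406 shared genes (CPM). The WT library stood apart. Its table was written by Cell Ranger 3.0.2 and the other tables by 7.0.0, its median mitochondrial share was 6.48% against 0.687% and 0.511%, and 19.8% of its cells had a V beta UMI against 89.5% and 89.2%. Strain, age, transplantation, kit and processing cannot be told apart between WT and the BMT libraries, whose levels are therefore only set side by side. Non-GVHD and GVHD shared 43 cell barcodes, and WT shared none with them. Each cell with at least 2000 UMIs was thinned to 2000 UMIs and gated on marker UMIs fixed for each subset, as cycling or not and by lineage. A lineage gate named alone holds its non-cycling cells. A gate is a range of marker UMIs and not a cell type. As a check by genes outside the gates, a separate list of NKT1 genes summed to 1153 CPM in NKT1-gated and 100.3 CPM in NKT2-gated cells of Non-GVHD. In WT these sums were 894 and 158 CPM, and in GVHD 823 and 100.3 CPM. A separate NKT2 list differed less, at 471 CPM in NKT2-gated and 209 in NKT1-gated cells of WT. It gave 578 and 145 CPM in Non-GVHD and 582 and 283 CPM in GVHD. A separate NKT17 list gave 573 CPM in NKT17-gated and 383 CPM in Treg-gated cells of Non-GVHD. Markers of other cells were present. The B cell list summed to 381 and 486 CPM in Non-GVHD and GVHD, the myeloid list to 448 and 595, and the regulatory T cell (Treg) list to 660.1 and 967, with every gene of these lists detected in both.

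All 8 genes were detected in all 3 libraries. The summed level was 81.1 CPM in WT, 126 CPM in Non-GVHD and 140.3 CPM in GVHD, with intervals of 78.8 to 83.5, 122 to 129.6 and 137 to 144. Hmgcs1, the synthase that makes HMG-CoA at the head of the pathway (chr13:119690379-119708260), lay at 14.6, 14.1 and 13.9 CPM in WT, Non-GVHD and GVHD. Its intervals overlapped in all 3 libraries.

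The isoprenoid enzymes differed more. Idi1, which isomerises isopentenyl diphosphate (chr13:8885501-8892451), lay at 5.88, 15.6 and 16.9 CPM. Fdps, which makes farnesyl diphosphate (chr3:89093588-89101959), lay at 31.8, 38.6 and 49.4 CPM, with separate intervals in all 3 libraries. Fdft1, squalene synthase and the committed step to sterols (chr14:63145150-63179578), lay at 7.47, 20.3 and 24.8 CPM, again with separate intervals. Of the sterol enzymes, Sqle, the squalene epoxidase (chr15:59315077-59331192), had few UMIs, 55, 121 and 196, or 0.935, 3.48 and 4.55 CPM. Lss, which closes the ring to lanosterol (chr10:76531588-76557138), lay at 3.62, 4.77 and 3.66 CPM. Its intervals overlapped in neighbouring libraries, 3.15 to 4.14, 4.07 to 5.55 and 3.11 to 4.28. Cyp51, the lanosterol demethylase (chr5:4081145-4104746), lay at 11.4, 14.0 and 14.7 CPM. Insig1, the retention protein (chr5:28071363-28078662), lay at 5.37, 14.9 and 12.5 CPM.

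The WT library was lowest, with its interval below both others, for Idi1, Fdps, Fdft1, Sqle, Cyp51 and Insig1, whereas for Hmgcs1 and Lss its interval overlapped the others. Coordinates are those of GRCm38 (mm10) in GENCODE vM21. Fdps overlaps the protein-coding gene Gm43738 and a small nuclear RNA gene on its own strand, Fdft1 overlaps Ctsb and Cyp51 overlaps Akap9 on the other strand, Hmgcs1 and Lss overlap antisense transcripts and Idi1 a transcript of unsettled kind on the other strand, so counts from these overlaps are uncertain, as are those that Idi1 could share with its paralog Idi2. Sqle and Insig1 overlap no other gene.

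**Figure D1:**
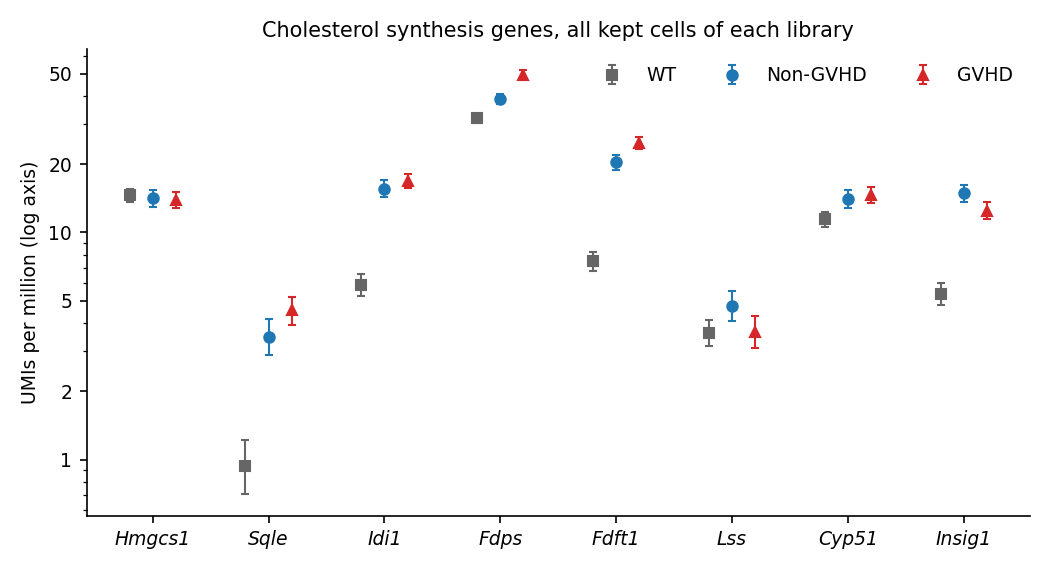
Levels of the 8 genes in all kept cells of each library, in CPM on a log axis, with 95% Poisson intervals (counting error only, 1 library per condition). WT lies below both other libraries for Idi1, Fdps, Fdft1, Sqle, Cyp51 and Insig1 and overlaps them for Hmgcs1 and Lss.

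UMIs of these genes were sparse in single cells. In cells thinned to 2000 UMIs, 13.7% of WT cells, 18.7% of Non-GVHD cells and 21.0% of GVHD cells had a UMI of any of the 8 genes. Without thinning the shares were 53.0%, 38.1% and 49.7%, a different order that goes with the deeper WT library. UMIs of at least 2 different members fell in the same thinned cell in 1.02%, 2.63% and 3.06% of cells, and the most member UMIs in 1 thinned cell were 6, 13 and 10. No subset here is known to lack these genes, so the UMIs that free RNA adds to cells were not measured. For this reason the results below rest on sums over cells.

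Which cells carried these UMIs was first compared by cell cycle state. Cells were called cycling with at least 3 UMIs of 26 S and G2/M genes after thinning, which took 947 cells of WT, 819 of Non-GVHD and 1096 of GVHD. Cycling cells carried more cholesterol synthesis UMIs, as CPM, in every library. The summed level was 64.7 CPM in non-cycling and 115 CPM in cycling cells of WT, 105 and 192 CPM in Non-GVHD, and 122 and 178 CPM in GVHD. On the log2 scale the ratio of cycling to non-cycling was 0.82 (95% interval 0.74 to 0.91) in WT, 0.87 (0.78 to 0.96) in Non-GVHD and 0.55 (0.47 to 0.62) in GVHD, where the last is just under 1.5-fold.

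Taken singly, members higher by at least 1.5-fold in cycling cells were 4 of 8 in WT, where 15.5% of 11100 genes with at least 50 UMIs over both sides were, 5 of 8 in Non-GVHD, where 13.6% of 11482 were, and 4 of 8 in GVHD, where 12.0% of 11727 were. No member was lower by 1.5-fold, beside 13.3%, 14.5% and 17.3% of those genes in WT, Non-GVHD and GVHD. The median log2 ratio of the 8 genes was 0.71, 0.84 and 0.46, beside -0.01, -0.03 and -0.10 over all of those genes. Cycling cells also had more UMIs, with medians of 20446, 8941 and 12816.5 against 10421, 4757 and 5933 in non-cycling cells, and the part of depth in the result was not tested beyond the thinned shares below.

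The difference was uneven over the pathway. Idi1 lay at 3.37 CPM in non-cycling and 10.997 CPM in cycling cells of WT, at 10.5 and 32.6 CPM in Non-GVHD and at 11.5 and 27.4 CPM in GVHD. Its log2 ratios were 1.70 (1.38 to 2.03), 1.64 (1.39 to 1.89) and 1.25 (1.03 to 1.47). Idi1 was above 2-fold in every library. Cyp51 lay at 7.64 and 19.2 CPM in WT, 10.5 and 24.6 CPM in Non-GVHD, and 11.2 and 21.5 CPM in GVHD, with log2 ratios of 1.33 (1.11 to 1.55), 1.22 (0.95 to 1.49) and 0.94 (0.71 to 1.17). Fdps followed with log2 ratios of 0.90 (0.76 to 1.03), 0.96 (0.80 to 1.12) and 0.64 (0.52 to 0.77). These enzymes sit at separate points of the pathway, before the branch to sterols and after ring closure.

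Sqle had few counts. It had 16 UMIs in non-cycling and 39 in cycling cells of WT, which gives a log2 ratio of 2.31 (1.44 to 3.25), with 0.97 (0.41 to 1.52) in Non-GVHD and 0.80 (0.37 to 1.22) in GVHD. Fdft1 was higher in cycling cells by less, with log2 ratios of 0.51 (0.23 to 0.79), 0.72 (0.49 to 0.95) and 0.28 (0.10 to 0.46). Hmgcs1 gave 0.41 (0.20 to 0.61) and 0.51 (0.22 to 0.79) in WT and Non-GVHD and -0.05 (-0.30 to 0.20) in GVHD, so its interval held 0 in the GVHD library alone.

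Lss and Insig1 did not differ between cycling and non-cycling cells beyond counting error in any library. Lss had log2 ratios of 0.23 (-0.19 to 0.65), 0.21 (-0.32 to 0.72) and 0.17 (-0.33 to 0.65). Insig1 lay at 5.38 and 5.37 CPM in WT, 14.3 and 14.5 CPM in Non-GVHD, and 12.9 and 11.5 CPM in GVHD. The intervals of the Insig1 log2 ratio, -0.36 to 0.34, -0.29 to 0.32 and -0.43 to 0.11, lie within 1.5-fold in both directions.

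**Figure D2:**
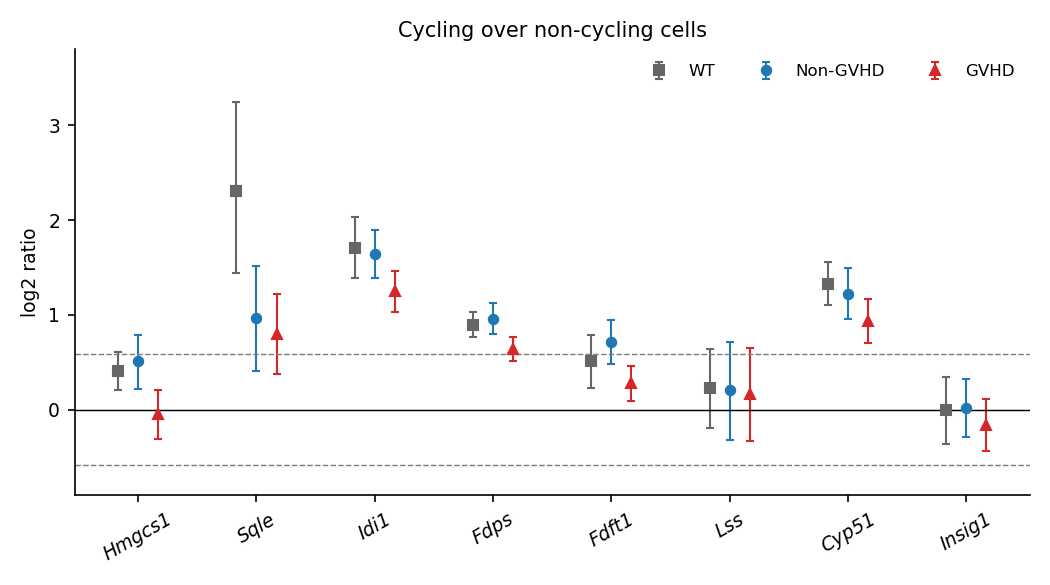
log2 ratio of cycling over non-cycling cells for each gene and library, with 95% exact conditional intervals for counting error, a line at 0 and dashed lines at 1.5-fold in either direction. Idi1 and Cyp51 lie above the upper dashed line with their whole intervals in all 3 libraries, and Lss and Insig1 lie with intervals across 0.

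The same comparison within a lineage gate gave CPM ratios of the same sign. Among NKT2-gated cells the summed log2 ratio of cycling to non-cycling was 0.74 (0.63 to 0.85) in WT, 0.79 (0.59 to 0.99) in Non-GVHD and 0.63 (0.49 to 0.78) in GVHD. Among NKT1-gated cells it was 0.43 (0.06 to 0.78), 0.94 (0.76 to 1.12) and 0.69 (0.43 to 0.95). At equal depth the NKT1 gate of GVHD lay the other way. Per thinned cell its cycling cells averaged 0.202 member UMIs and its non-cycling cells 0.228. In WT and Non-GVHD, cycling NKT1-gated cells lay above non-cycling ones, at 0.195 against 0.143 and 0.417 against 0.201. Cycling NKT2-gated cells lay above in all 3 libraries, at 0.231 against 0.139, 0.291 against 0.169 and 0.261 against 0.184. By CPM, Idi1 was higher in cycling cells of both gates in all 3 libraries, with log2 ratios from 1.72 (0.64 to 2.73) in NKT1-gated cells of WT to 2.10 (1.55 to 2.68) in NKT2-gated cells of GVHD. Cyp51 was higher in both gates, except in NKT1-gated cells of GVHD, where it gave 0.01 (-1.17 to 1.05). Insig1 held 0 in both gates of every library, but there its intervals reached past 1.5-fold. In NKT2-gated cells it gave 0.40 (-0.47 to 1.25) in Non-GVHD and 0.44 (-0.19 to 1.06) in GVHD.

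Cells in S and in G2/M, split by the list with more UMIs, differed in which members they carried. Idi1 was higher in S than in G2/M cells, at 13.3 and 5.91 CPM in WT, 36.4 and 14.1 CPM in Non-GVHD, and 29.5 and 20.2 CPM in GVHD. Its log2 ratios of S over G2/M were 1.17 (0.61 to 1.77), 1.37 (0.68 to 2.15) and 0.55 (0.12 to 1.004). Hmgcs1 lay the other way in WT and Non-GVHD, at -0.46 (-0.80 to -0.11) and -0.76 (-1.33 to -0.16), and at 0.01 (-0.53 to 0.58) in GVHD. Cyp51 was higher in S cells of WT and GVHD, at 0.64 (0.26 to 1.04) and 1.13 (0.56 to 1.74), and its Non-GVHD value of 0.28 (-0.31 to 0.92) held 0. Of these 3 genes, Idi1 alone had its interval on the same side of 0 in every library.

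At equal depth, the share of thinned cells with a UMI of the 8 genes was set against the number of cycling UMIs in the cell. With 0 cycling UMIs the share was 11.8% in WT, 16.6% in Non-GVHD and 20.1% in GVHD. With over 10 cycling UMIs it was 28.0% (Clopper-Pearson interval 21.6 to 35.1) of 182 WT cells, 34.3% (26.4 to 42.9) of 137 Non-GVHD cells and 22.3% (17.2 to 28.0) of 247 GVHD cells. In GVHD the share was highest at 6 to 10 cycling UMIs, 29.97%, and the interval with over 10 held the share of cells without any. Per thinned cell, G2/M cells of GVHD averaged 0.238 member UMIs, non-cycling cells 0.252 and S cells 0.334. In WT and Non-GVHD, G2/M cells lay above non-cycling cells, at 0.173 against 0.134 and 0.347 against 0.208.

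**Figure D3:**
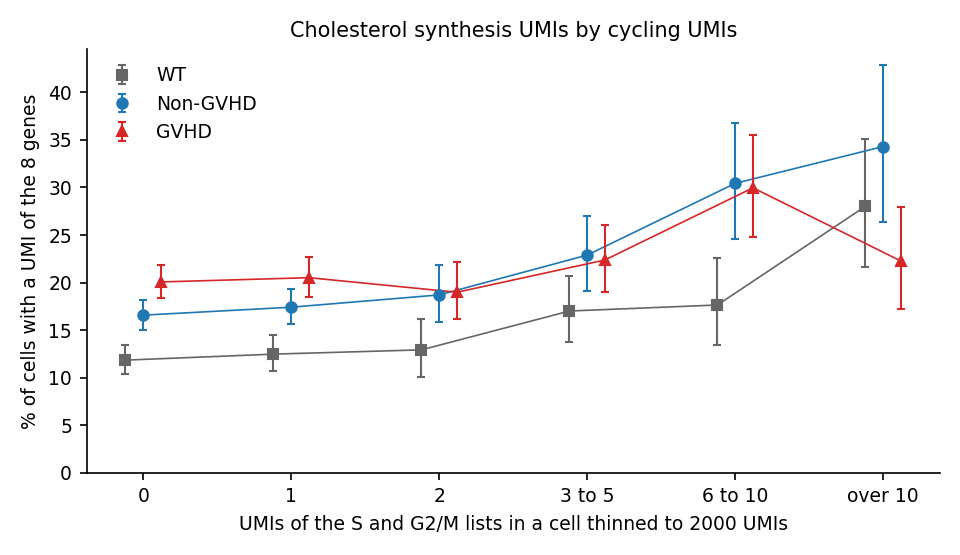
Percent of cells with a UMI of the 8 genes, after thinning to 2000 UMIs, against the UMIs of the S and G2/M lists in the same thinned cell, with 95% Clopper-Pearson intervals. WT and Non-GVHD have their highest share in the last bin, and GVHD in the bin of 6 to 10.

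Among non-cycling cells, the level was compared between gated subsets. In WT the summed level was 61.1 CPM in cells gated on interferon genes, 61.9 in ungated, 63.6 in NKT1-gated, 66.2 in NKT2-gated and 81.3 in the 40 NKT17-gated cells, with overlapping intervals throughout. In Non-GVHD it was 75.9 CPM in interferon-gated, 82.7 in NKT2-gated, 89.6 in B-gated, 105 in NKT17-gated, 106 in NKT1-gated, 106 in ungated, 113 in Treg-gated and 217 in myeloid-gated cells. The NKT2 interval, 74.8 to 91.2, lay below that of NKT1-gated cells, 99.99 to 112, and the myeloid interval lay above all others, while the neighbours from NKT17-gated to Treg-gated cells overlapped. In GVHD it was 62.4 CPM in interferon-gated, 89.4 in NKT2-gated, 108 in NKT1-gated, 115 in CD8-gated, 132 in ungated, 146 in Treg-gated, 153 in NKT17-gated, 170.0 in B-gated and 238 in myeloid-gated cells. Here too NKT2-gated cells lay below NKT1-gated cells and myeloid-gated cells above all others, and the neighbours from ungated to B-gated cells overlapped. After thinning, 80.5% of myeloid-gated cells of Non-GVHD had no member UMI, beside 77.6% of NKT17-gated and 82.8% of all non-cycling cells. In GVHD 69.8% of myeloid-gated and 79.9% of non-cycling cells had none. Cells with 3 or more were 4.42% against 0.586% in Non-GVHD and 2.91% against 0.904% in GVHD. The intervals do not cover UMIs gathered in few cells.

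NKT1 cells make interferon-γ and NKT2 cells interleukin-4, and the study followed the balance between them. Between these gates the members lay in both directions. NKT2-gated over NKT1-gated cells gave a summed log2 ratio of 0.06 (-0.11 to 0.22) in WT, -0.36 (-0.53 to -0.19) in Non-GVHD and -0.27 (-0.45 to -0.09) in GVHD, and without Fdps the sums were -0.26 (-0.45 to -0.06), -0.62 (-0.83 to -0.41) and -0.66 (-0.88 to -0.44), so that the WT value turns its sign without that gene. Read from all UMIs of a cell in place of 2000, the WT gates gave -0.14. Members lower by 1.5-fold in NKT2-gated cells were 2 of 7 in WT, 3 of 7 in Non-GVHD and 2 of 6 in GVHD, beside 13.8%, 16.6% and 18.3% of all genes with enough UMIs. In WT 1 member, Fdps, was higher by 1.5-fold, beside 11.2% of all genes. NKT2-gated cells were the deeper ones, with median UMIs of 12833, 7685 and 8316.5 against 6286, 4394 and 4501.5, and the part of depth was not tested.

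Insig1 was lower in NKT2-gated cells, with its interval below 0 in every library. It lay at 7.90 CPM in NKT1-gated and 4.80 CPM in NKT2-gated cells of WT, at 16.3 and 5.95 CPM in Non-GVHD, and at 12.4 and 5.50 CPM in GVHD. Its log2 ratios of NKT2 over NKT1 were -0.72 (-1.22 to -0.20), -1.45 (-2.07 to -0.88) and -1.17 (-1.79 to -0.56). Idi1 was lower in the BMT libraries, at 11.2 and 4.10 CPM in Non-GVHD and 8.55 and 4.27 CPM in GVHD, with log2 ratios of -1.45 (-2.21 to -0.76) and -1.003 (-1.73 to -0.27), and the WT value was -0.52 (-1.19 to 0.20).

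Sqle had no UMI in the 609 NKT2-gated cells of Non-GVHD against 26 in NKT1-gated cells, and the counting interval of that log2 ratio ends at -1.55. A count of 0 there allows up to 0.616 CPM with 3 counts as the limit over the gate. With 7 UMIs in each gate of WT and 9 against 14 in GVHD, its log2 ratios were -1.86 (-3.60 to -0.12) and -1.93 (-3.32 to -0.62). Lss gave -0.82 (-1.42 to -0.19), -0.81 (-1.65 to -0.05) and -0.77 (-1.76 to 0.25), and the GVHD value turned to 0.012 with at least 5 UMIs asked of a gate. Fdps lay the other way, at 17.6 and 27.7 CPM in NKT1-gated and NKT2-gated cells of WT, 28.7 and 32.2 CPM in Non-GVHD, and 30.6 and 40.5 CPM in GVHD. Its log2 ratios were 0.65 (0.36 to 0.96), 0.17 (-0.12 to 0.45) and 0.41 (0.09 to 0.73), and the Non-GVHD interval held 0. Hmgcs1 and Cyp51 held 0 in every library, and Fdft1 was lower in GVHD alone, at -0.55 (-0.93 to -0.16). Whether the ratios differ between libraries was not tested.

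GVHD and Non-GVHD, the transplanted pair, were the condition comparison of the series. Over all cells the log2 ratio of GVHD to Non-GVHD was 0.16 (0.10 to 0.21) for the sum, and 0.06 (-0.01 to 0.13) without Fdps. Past 1.5-fold in either direction were 0 of 8 members, where 15.1% of 12802 genes with enough UMIs were. The members' median was 0.09, beside 0.00 over all genes.

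Within that range, Fdps was higher in GVHD, at 0.36 (0.26 to 0.46), as were Fdft1 at 0.29 (0.15 to 0.43) and Sqle at 0.39 (0.05 to 0.73). Lss was lower at -0.38 (-0.70 to -0.06) and Insig1 at -0.25 (-0.43 to -0.08). Hmgcs1, Idi1 and Cyp51 gave -0.03 (-0.20 to 0.15), 0.11 (-0.05 to 0.28) and 0.06 (-0.11 to 0.24), all across 0. In a whole library, a higher level per cell and more cells of a subset that carries the gene cannot be told apart, so the comparison was repeated within gates.

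Of NKT1-gated cells, GVHD had 688 and Non-GVHD 2344. The summed level was 106 CPM in Non-GVHD and 108 CPM in GVHD, a log2 ratio of 0.02 (-0.14 to 0.19), and 0 of 7 members passed 1.5-fold either way against 20.2% of 9692 genes. Thinned NKT1-gated cells averaged 0.201 member UMIs in Non-GVHD and 0.228 in GVHD, and 83.5% and 79.8% of them had none. Fdft1, at 17.5 and 25.1 CPM, gave 0.52 (0.15 to 0.89) and was the only member whose interval left out 0. Within this gate the markers of other cells differed more than the members did. The 6 genes of the Treg list summed to 167 CPM in Non-GVHD and 953 CPM in GVHD with all 6 detected in both, and the 7 genes of the CD8 list to 68.0 and 493 CPM with Rag2 at 0 in both and Rag1 at 0 in GVHD, and their part in the result was not tested.

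NKT2-gated cells, 609 in Non-GVHD and 1028 in GVHD, lay at 82.7 and 89.4 CPM, a log2 ratio of 0.11 (-0.06 to 0.29). Past 1.5-fold were 0 of 6 members against 4.66% of 9350 genes. Fdps, at 0.33 (0.06 to 0.61), was the member with enough UMIs whose interval left out 0. Sqle had 9 UMIs in GVHD and 0 in Non-GVHD here, and the counting interval of the log2 ratio begins at 0.11. Cycling cells lay at 192 and 178 CPM, a log2 ratio of -0.11 (-0.20 to -0.02), with 0 of 8 members past 1.5-fold against 7.64% of 10620 genes. Hmgcs1, at -0.42 (-0.73 to -0.10), and Idi1, at -0.25 (-0.48 to -0.02), were lower in GVHD over all cycling cells. The cycling cells mixed lineages, with 227 NKT2-gated and 228 NKT1-gated cells in Non-GVHD and 406 and 109 in GVHD. Within cycling NKT2-gated, NKT1-gated and Treg-gated cells, Idi1 gave 0.22 (-0.30 to 0.76), -0.12 (-0.75 to 0.49) and 0.38 (-0.14 to 0.92). In the same order Hmgcs1 gave -0.61 (-1.31 to 0.10), 0.21 (-0.75 to 1.14) and -0.03 (-0.81 to 0.78). All of these intervals within gates held 0, and the part of lineage in the result was not tested. With gates read from all UMIs of a cell in place of 2000, the summed ratio of cycling cells was 0.022, so its sign depends on that choice. Of the cycling cells, those in G2/M gave -0.18 (-0.42 to 0.06) for the sum. There 2 of 6 members were lower by 1.5-fold, Hmgcs1 at -0.94 (-1.67 to -0.22) and Cyp51 at -0.93 (-1.75 to -0.12), against 5.12% of 7089 genes. B-gated cells, 88 in Non-GVHD and 97 in GVHD, lay at 89.6 and 170.0 CPM, a log2 ratio of 0.92 (0.45 to 1.41) from 52 and 134 UMIs. After thinning, 78.4% of these cells in Non-GVHD and 80.4% in GVHD had no member UMI, and 1.14% and 6.19% had 3 or more. The share of cells with a member UMI was thus not higher in GVHD, and the interval does not cover UMIs gathered in few cells. In this gate the B cell list summed to 9213 CPM in Non-GVHD and 7860 CPM in GVHD. The myeloid list gave 1453 and 2601 CPM and the CD8 list 238 and 735 CPM, and their part in the result was not tested.

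Treg-gated cells lay at 113 CPM in Non-GVHD (331 cells) and 146 CPM in GVHD (436 cells), a log2 ratio of 0.37 (0.12 to 0.63), with 3 of 6 members higher by 1.5-fold against 3.84% of 7500 genes. These were Hmgcs1 at 0.71 (-0.03 to 1.51), Idi1 at 0.94 (0.10 to 1.85) and Fdps at 0.76 (0.15 to 1.41), of which the first held 0. In cycling Treg-gated cells, at 269 and 281 CPM, the ratio was 0.06 (-0.16 to 0.29). NKT17-gated cells gave 0.54 (0.19 to 0.89) from 151 and 123 UMIs, and ungated cells 0.31 (0.16 to 0.46). After thinning, 77.6% of NKT17-gated cells had no member UMI in both libraries, and 0.350% in Non-GVHD and 1.86% in GVHD had 3 or more. The share of NKT17-gated cells with a member UMI was thus not higher in GVHD, and the interval does not cover UMIs gathered in few cells.

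**Figure D4:**
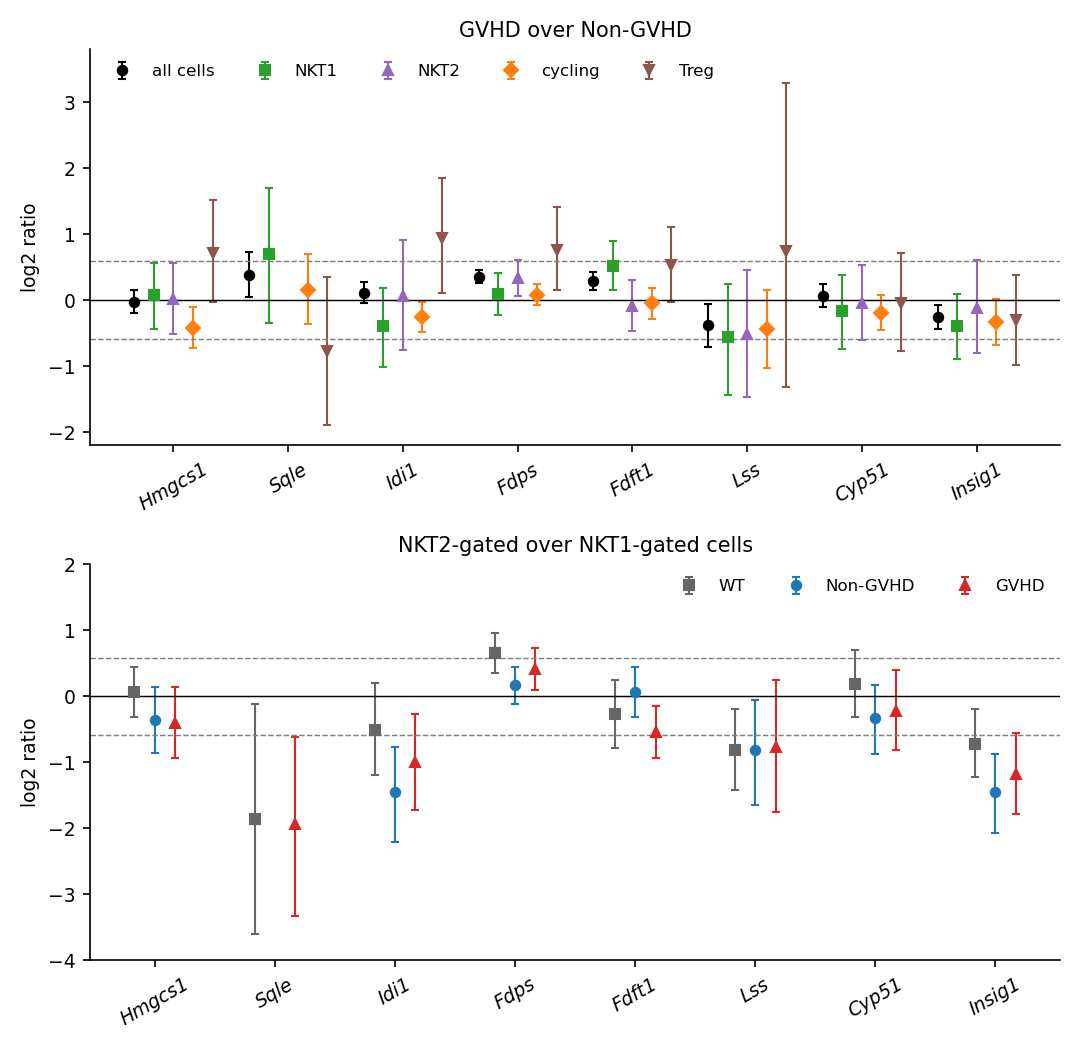
Upper panel, log2 ratio of GVHD over Non-GVHD for each gene in all cells and in 4 gates, and lower panel, log2 ratio of NKT2-gated over NKT1-gated cells in each library, with 95% exact conditional intervals for counting error and dashed lines at 1.5-fold. Points of all cells lie between the dashed lines for all 8 genes, and Insig1 lies below 0 in the lower panel in all 3 libraries. Sqle is not drawn where 1 side had no UMI.

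Cells were also split by T cell receptor. A cell was assigned to the V beta segment that held at least 80% of its UMIs of such segments, and was counted as iNKT V beta when iNKT receptors are known to use that segment (Trbv1, Trbv13-1, Trbv13-2, Trbv13-3 and Trbv29). Trbv12-2 was counted with them only because its UMIs were joined with those of Trbv13-2. Other V beta segments took 20.6% of assigned cells in Non-GVHD and 39.3% in GVHD. Those cells carried more cholesterol synthesis UMIs, at 169.9 against 117 CPM in Non-GVHD and 166 against 118 CPM in GVHD, log2 ratios of 0.53 (0.42 to 0.65) and 0.49 (0.40 to 0.58). Higher by 1.5-fold were 5 of 8 members in Non-GVHD and 4 of 8 in GVHD, against 12.9% of 10913 and 16.6% of 11169 genes. Sqle had 38 UMIs in other and 47 in iNKT V beta cells of Non-GVHD and 92 and 54 in GVHD, with log2 ratios of 1.89 (1.23 to 2.54) and 1.99 (1.49 to 2.50). Idi1 lay at 24.2 and 13.2 CPM in other and iNKT V beta cells of Non-GVHD and at 21.6 and 12.1 CPM in GVHD, with log2 ratios of 0.87 (0.55 to 1.19) and 0.84 (0.57 to 1.10). Insig1 gave 0.63 (0.28 to 0.96) and 1.02 (0.71 to 1.33). The early step, Hmgcs1, gave 0.69 (0.35 to 1.02) and 0.54 (0.25 to 0.82), and the committed step, Fdft1, 0.49 (0.21 to 0.77) and 0.84 (0.63 to 1.04). Cyp51 gave 0.75 (0.40 to 1.08) and 0.27 (-0.01 to 0.55), and Lss -0.01 (-0.73 to 0.65) and 0.58 (0.01 to 1.14). Fdps did not differ between the V beta classes beyond counting error, at 0.14 (-0.09 to 0.36) and -0.07 (-0.23 to 0.09). In WT, where 76 cells had another V beta, the summed ratio was -0.02 (-0.32 to 0.26). The V beta classes also differed in marker genes. The Treg list summed to 2152 CPM in other and 326 CPM in iNKT V beta cells of Non-GVHD and to 2069 and 486 CPM in GVHD, with 6 of 6 genes detected in each. The B cell list gave 379 and 109 CPM in other and iNKT V beta cells of Non-GVHD and 365 and 122 CPM in GVHD. In the same order the CD8 list gave 277, 112, 371 and 225 CPM, and the myeloid list 278, 199.5, 473 and 203 CPM. Of the 8 myeloid genes, C1qa, C1qb, Csf1r and Ccl9 were at 0 in other and C1qa in iNKT V beta cells of Non-GVHD, and of the 7 CD8 genes Rag2 was at 0 in other V beta cells of GVHD. The NKT17 list gave 544, 228, 321 and 103 CPM. These 5 lists were higher in other V beta cells of both libraries. The NKT2 list was lower there, at 1057 against 1278 CPM in Non-GVHD and 948 against 2026 CPM in GVHD. The NKT1 list lay in opposite directions, at 1942 against 3672 CPM in Non-GVHD and 2221 against 902 CPM in GVHD. The part of these lists in the result was not tested. Median UMIs were 4094 in other and 4898 in iNKT V beta cells of Non-GVHD and 4629 and 8176 in GVHD, and the part of depth was not tested.

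Within the V beta classes, GVHD over Non-GVHD was 0.01 (-0.07 to 0.09) for the sum among iNKT V beta cells and -0.04 (-0.16 to 0.09) among the others. Without Fdps the summed ratios were -0.17 (-0.26 to -0.07) and -0.09 (-0.23 to 0.06), so among iNKT V beta cells the other members together were lower in GVHD. Weighting the GVHD gates by their UMI shares in Non-GVHD, an alternative chosen after the values were seen, gave 0.083 in place of 0.16 over gated cells. Single members still lay apart among iNKT V beta cells, where Fdps was at 0.31 (0.18 to 0.44), Insig1 at -0.70 (-0.97 to -0.43) and Lss at -0.66 (-1.12 to -0.21). The intervals of the other members held 0. Of these, Fdft1 and Sqle, which were higher in GVHD over all cells, gave -0.05 (-0.24 to 0.14) and 0.13 (-0.46 to 0.73) among iNKT V beta cells. The NKT1 list summed to 3672 CPM in these cells of Non-GVHD and 902 CPM in GVHD. Insig1 there lay at 13.1 CPM in Non-GVHD and 8.11 CPM in GVHD. Within NKT1-gated and NKT2-gated cells Insig1 gave -0.39 (-0.90 to 0.09) and -0.11 (-0.80 to 0.60), both across 0. Over gated cells Insig1 gave -0.21, and -0.18 with the Non-GVHD weights.

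Treg-gated cells also differed from NKT2-gated cells of their own library. Treg-gated over NKT2-gated cells gave a summed log2 ratio of 0.44 (0.19 to 0.70) in Non-GVHD and 0.71 (0.53 to 0.88) in GVHD. Higher by 1.5-fold were 2 of 5 members in Non-GVHD against 21.5% of 8295 genes, and 5 of 6 in GVHD against 20.2% of 9274. Those in Non-GVHD were Cyp51 at 0.88 (0.13 to 1.61) and Insig1 at 1.78 (1.02 to 2.55). Those in GVHD were Hmgcs1 at 1.09 (0.57 to 1.59), Idi1 at 2.11 (1.47 to 2.77), Fdft1 at 0.98 (0.59 to 1.37), Cyp51 at 0.89 (0.31 to 1.45) and Insig1 at 1.59 (0.97 to 2.21). Fdps lay the other way, at -0.79 (-1.39 to -0.22) in Non-GVHD and -0.36 (-0.72 to -0.01) in GVHD. Sqle had 16 UMIs in Treg-gated and 0 in NKT2-gated cells of Non-GVHD, and the counting interval of the log2 ratio begins at 3.50. Median UMIs were 4066 in Treg-gated and 7685 in NKT2-gated cells of Non-GVHD and 4898 and 8316.5 in GVHD, and the part of depth was not tested.

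The other genes of the pathway were read from lists, of which the most counted genes and those past 1.5-fold between GVHD and Non-GVHD are named by rule and any further gene was chosen after its values were seen. Of 14 further enzymes of the mevalonate and sterol pathway, 0 passed 1.5-fold between GVHD and Non-GVHD over all cells. Of 12802 genes 15.1% did, and the median of the 14 was 0.08. Among the most counted, Ebp, a sterol isomerase, gave 0.24 (0.17 to 0.32), Ggps1, which makes geranylgeranyl diphosphate, -0.03 (-0.12 to 0.06), Sc5d, a sterol desaturase, -0.16 (-0.28 to -0.04), and Pmvk, phosphomevalonate kinase, 0.31 (0.15 to 0.46). In cycling cells, 3, 3 and 2 of the 14 were higher by 1.5-fold in WT, Non-GVHD and GVHD, against 15.5%, 13.6% and 12.0% of all genes with enough UMIs, and 0 were lower, against 13.3%, 14.5% and 17.3% of all genes. Acat2, which makes acetoacetyl-CoA, was among them in every library and gave 0.79 (0.57 to 1.02), 0.96 (0.68 to 1.25) and 0.998 (0.76 to 1.24). Over the 14 enzymes the median log2 ratio of cycling to non-cycling cells was 0.12, 0.34 and 0.08, below the 0.71, 0.84 and 0.46 of the 8 members.

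Genes of sterol uptake and control numbered 12. Between GVHD and Non-GVHD 0 were higher and 2 lower by 1.5-fold over all cells, where 6.79% of 12802 genes were higher and 8.27% lower. The lower genes include Mylip, a ubiquitin ligase that limits lipoprotein uptake, at -0.92 (-1.04 to -0.79). Srebf2, which encodes SREBP2, gave -0.07 (-0.19 to 0.04), Srebf1, which encodes SREBP1, -0.09 (-0.21 to 0.03), Mbtps1, a protease that cleaves SREBPs, -0.21 (-0.34 to -0.09), and Npc2, which binds cholesterol in lysosomes, 0.18 (0.15 to 0.21). In cycling cells 3, 2 and 2 were higher and 1, 1 and 2 lower by 1.5-fold in WT, Non-GVHD and GVHD, beside all-gene shares of 15.5%, 13.6% and 12.0% higher and 13.3%, 14.5% and 17.3% lower. Tmem97, a sterol-regulated membrane protein, was higher with log2 ratios of 2.66 (2.41 to 2.91), 2.06 (1.82 to 2.30) and 1.95 (1.76 to 2.15), and Stard4, a sterol carrier, with 0.88 (0.65 to 1.10), 0.997 (0.69 to 1.30) and 0.81 (0.55 to 1.06). Mylip lay at -1.07 (-1.18 to -0.96), -0.91 (-1.15 to -0.68) and -0.51 (-0.74 to -0.28) in the same comparison.

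Genes of cholesterol export and storage were read the same way in cycling cells. Of 8 genes, 5 had enough UMIs and 2, 3 and 3 of these were lower by 1.5-fold in WT, Non-GVHD and GVHD, with 1, 0 and 0 higher. Of all genes with enough UMIs, 13.3%, 14.5% and 17.3% were lower and 15.5%, 13.6% and 12.0% higher. Abca1, a cholesterol exporter, gave -1.33 (-1.49 to -1.17), -0.60 (-0.91 to -0.29) and -0.60 (-0.84 to -0.36), and Abcg1, another exporter, -0.99 (-1.12 to -0.85), -0.65 (-0.83 to -0.47) and -0.63 (-0.79 to -0.48). Apoe, a lipid carrier of macrophages, differed in sign, at 1.29 (0.85 to 1.75) in WT and -2.18 (-2.50 to -1.88) and -2.88 (-3.18 to -2.60) in the BMT libraries. The non-cycling cells held 4 myeloid-gated cells in WT, 113 in Non-GVHD and 172 in GVHD, and their part in the Abca1, Abcg1 and Apoe values was not tested. Nr1h2, a sterol-sensing nuclear receptor, and Soat1, which esterifies cholesterol, lay between -0.25 and 0.01 in all 3 libraries. Between GVHD and Non-GVHD over all cells 0 of the 7 measured efflux genes passed 1.5-fold, where 15.1% of 12802 genes did.

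Genes whose level followed that of the summed members were sought over 21 points, the gates NKT1, NKT2, NKT17, interferon, Treg, CD8, S and G2/M with at least 30 cells in each library, centred within libraries. These points share libraries and the cycling gates, so the correlation is a description. Of 9913 genes with at least 500 UMIs, the 10 nearest outside the set were Mbnl3 (Pearson r = 0.948), Nup43 (0.907), Rfc4 (0.902), Kdelr2 (0.897), Uhrf1 (0.896), Cs (0.889), Fkbp4 (0.885), Phf10 (0.876), Ndufa5 (0.874) and Pdcd5 (0.873). Uhrf1 is in the list that gates S cells, and Rfc4 encodes a subunit of the DNA replication clamp loader. Of the members, Cyp51 and Idi1 lay nearest to the sum of which they are part, at 0.889 and 0.880. Fdps, Hmgcs1 and Fdft1 gave 0.724, 0.714 and 0.672, and Insig1 and Lss 0.587 and 0.570. Sqle had too few UMIs to enter.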

How the data were processed

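Droplet RNA-seq was made from 3 pooled thymic samples, 1 library for each of WT, Non-GVHD and GVHD. The authors deposited raw UMI counts per gene and cell as Cell Ranger wrote them, for called cells only, and the file headers name Cell Ranger 3.0.2 for WT and 7.0.0 for the others, while the study's methods state another version. The submitters' processing notes also name Seurat 4.0.2 and mm10. The kit labels name 3′ and 5′ chemistry without tying either to a library. A table listed 31053 genes in WT and 32285 in the others, and levels were computed over the 30406 shared genes. The tables held 4613, 5986 and 5573 cells and 60600408, 35041153 and 43383960 UMIs, and 0 columns belonged to other samples.

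Cells were kept by the filter the report states. Gates were read from 2000 UMIs drawn from each cell, which left 12, 541 and 256 kept cells ungated for depth. A lineage gate needed at least 3 UMIs of at least 2 genes of its list and a lead of 1.5-fold over the next list. No doublet caller was run and doublets were kept, and an alternative left out the 6% of cells with most UMIs. Ratios of summed UMIs carry exact conditional binomial intervals, levels exact Poisson intervals and shares Clopper-Pearson intervals, all at 95%. UMIs limit but do not remove amplification error. Counts of genes past 1.5-fold cover genes with at least 50 UMIs over both sides. No test was run, since each condition had 1 library. The likeness of genes used log2(CPM + 1). A cell's V beta UMIs on Trbv12-2 and Trbv13-2 were joined before segments were compared.

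The 8 genes and the lists were chosen with earlier results of these data known. Genes named were these 8, in each pathway list the 5 with most UMIs and any past 1.5-fold between GVHD and Non-GVHD over all cells, and the 10 most alike in level, and some genes of the pathway lists are counted but not reported by name here. The scripts were tested on simulated data and used Python 3.11.15, numpy 2.4.6, scipy 1.17.1, pandas 2.3.3 and matplotlib 3.10.9. Alternatives were tried for the gates, the cell filter, scaling, weight of cells, cells compared, doublets, members, minimum UMIs and fold, and 2 more were chosen after the data were seen.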

Additional observations from a re-analysis of the deposited data

How the results depend on the processing

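No paired analysis was possible because each condition had 1 library and the labels give no shared replicate numbers, and for the same reason no replicate could be left out. Of 94 alternative values of the summed log2 ratios, 75 lay within the counting interval of the reported value and 85 kept its direction. The values outside that interval follow, and their cause was not tested. GVHD over Non-GVHD over all cells was 0.0097 among iNKT V beta cells, 0.060 without Fdps and 0.083 with Non-GVHD gate weights, the last chosen after the data were seen. In cycling cells it was 0.022 with gates from all UMIs and -0.21 without Fdps. Cycling over non-cycling cells, with gates from all UMIs, was 0.63 in WT, 0.56 in Non-GVHD and 0.30 in GVHD, and without the 6% of cells with most UMIs it was 0.73, 0.77 and 0.41. It was 0.71 in WT without mitochondrial and ribosomal genes, 0.77 in Non-GVHD among iNKT V beta cells and 0.43 in GVHD as the mean of cell CPM. NKT2-gated over NKT1-gated cells, with gates from all UMIs, was -0.14 in WT and -0.65 in GVHD, and without Fdps it was -0.26, -0.62 and -0.66 in WT, Non-GVHD and GVHD. Lss in that comparison of GVHD turned from -0.77 to 0.012 with at least 5 UMIs for a gate. Asked for 2-fold in place of 1.5-fold, members higher in cycling cells were 2 in Non-GVHD in place of 5 and 1 in GVHD in place of 4, and in WT the 1 member higher and the 2 lower in NKT2-gated cells were 0 and 0. With 200 UMIs in place of 50, members lower in NKT2-gated cells were 0 in WT, 1 in Non-GVHD and 0 in GVHD. The shares of all genes at 2-fold and at 200 UMIs are not given here, so these counts describe the members alone. Depth limits Sqle most, which had under 50 UMIs over both sides of several comparisons.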

Other observations

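Myeloid-gated and B-gated cells, gated on markers of cells other than T cells, carried UMIs of these genes as well. Doublets were kept, and the NKT1 list summed to 421 and 623 CPM in myeloid-gated cells of Non-GVHD and GVHD. In B-gated cells it summed to 252 and 403 CPM, and the part of T cell RNA in these gates was not measured. Myeloid-gated cells lay at 217 CPM in Non-GVHD (113 cells) and 238 CPM in GVHD (172 cells) for the sum, log2 ratios of 1.05 (0.82 to 1.27) and 0.97 (0.79 to 1.13) over non-cycling cells as a whole. These intervals do not cover UMIs gathered in few cells, and after thinning 80.5% and 69.8% of the myeloid-gated cells had no member UMI. By CPM, cycling Treg-gated cells had the highest summed level of any gate of the BMT libraries, 269 CPM from 104 cells and 281 CPM from 144 cells, with intervals that overlapped those of the myeloid gate. Per thinned cell of Non-GVHD they averaged 0.385 member UMIs, below the 0.417 of cycling NKT1-gated cells. In GVHD they averaged 0.549, above the 0.477 of the myeloid gate.

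Genes of fatty acid synthesis, known targets of the related factor SREBP1, were read in the same way. Of 10, 9 had enough UMIs between GVHD and Non-GVHD over all cells, and 1 was higher and 2 were lower by 1.5-fold in GVHD, where 6.79% of 12802 genes were higher and 8.27% lower. Fads2, a fatty acid desaturase, lay at 3.13 CPM in Non-GVHD and 8.05 CPM in GVHD, a log2 ratio of 1.36 (1.05 to 1.69). Elovl5, which lengthens polyunsaturated fatty acids, lay at 74.6 and 45.9 CPM, -0.70 (-0.79 to -0.62), and Scd1, a desaturase, gave -1.02 (-1.60 to -0.46). Acly, Fasn, Acaca and Scd2 gave -0.19, 0.09, -0.33 and 0.08. NKT2-gated over NKT1-gated cells gave -1.54 (-1.80 to -1.28), -1.65 (-1.89 to -1.43) and -1.08 (-1.34 to -0.83) for Elovl5 in WT, Non-GVHD and GVHD, and 1.10 (0.94 to 1.27), 2.19 (1.92 to 2.47) and 1.09 (0.76 to 1.44) for Scd2, another desaturase.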
